A study of Homo sapiens with 6 samples.

Results

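Megakaryocyte and platelet genes were examined in the human leukemia cell line SEM with and without overexpression of EGR3. The group holds 9 genes of the 35410 genes listed, found by gene name in a list drawn up with earlier results of these data known: ITGA2B, ITGB3, GP9, GP1BA, PF4, THBS1, VWF, TUBB1 and SELP. Rows were found for 8 of them, and PF4 was not analysed here. RNA was measured by MACE-Seq, a sequencing of the 3′ ends of polyadenylated transcripts, in 3 biological replicates of each of 2 lines. SEM::mock was transfected with an empty vector and SEM::EGR3 with a vector for EGR3. SEM is an established line of B cell precursor leukemia with the KMT2A::AFF1 fusion, and both lines received 1 µg/mL doxycycline, which switches on the transgene, 48 h before RNA was taken. Whether the lines are single clones or pools was not given in the sources used here. With 1 SEM::mock and 1 SEM::EGR3 line, the transgene and any other difference between the lines cannot be told apart.

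Megakaryocytes are the large bone marrow cells that shed platelets into the blood. Platelets stick to injured vessels through the GPIb-IX-V complex, which binds von Willebrand factor, and to each other through the integrin αIIbβ3, which binds fibrinogen. They carry alpha granules filled with adhesive proteins and chemokines, and keep their disc shape through a ring of microtubules. The factors GATA1, FLI1, RUNX1 and NFE2 drive this programme, and GATA1, TAL1, LMO2 and NFE2 also act in red cell precursors.

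Library depth, as the total over listed genes, was 5286115 to 6181388 counts in SEM::mock and 7293092 to 15106018 in SEM::EGR3. A count of 3, taken as the detection limit, thus equaled 0.502 to 0.588 CPM (counts per 1000000 counts, TMM-normalized) in SEM::mock and 0.194 to 0.404 CPM in SEM::EGR3. EGR3 itself had 6 to 10 counts per library in SEM::mock and 4952 to 9768 in SEM::EGR3. Calls were common over the whole table. The quasi-likelihood test of edgeR, with p-values adjusted by Benjamini-Hochberg and called under 0.05, was run on the 15465 genes that passed the filter on low counts, and 68.5% were called, 36.5% higher and 32% lower in SEM::EGR3. Means are given ± SD and log2 fold changes (log2FC) ± standard error. The replicates are named biological ones, with no word on whether they were separate cultures, so p-values measure the spread between these samples, which may be technical. The markers of the labelled proB type were divided in SEM::mock. Of 9 proB markers 6 were tested, of which 5 were higher and CD24 lower in SEM::EGR3, and their summed level was 134 to 157 CPM in SEM::mock and 441 to 472 CPM in SEM::EGR3. The B cell factor genes were near 0 in SEM::mock, where PAX5 had 1, 1 and 2 counts and EBF1 had 0 in each, against the label. In SEM::EGR3, PAX5 had 3410, 1443 and 1760 counts and EBF1 had 2058, 925 and 1145. CD24 made up most of the sum in SEM::mock, with 143.7 ± 11.2 CPM there and 23.5 ± 0.530 CPM in SEM::EGR3 (n = 3 per line), and DNTT and CD34 had 2 counts or fewer in each library of both lines. Both lines held transcripts of the erythroid lineage, with summed levels of the 10 erythroid markers of 3610 to 3770 CPM in SEM::mock and 3710 to 3820 CPM in SEM::EGR3.

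Among the 8 measured genes, 6 passed the filter on low counts. Of these, ITGA2B, ITGB3 and VWF were higher in SEM::EGR3, GP1BA and THBS1 were lower, and TUBB1 did not pass the threshold. GP9 and SELP were too rare to be tested in the filtered table. Calls thus went both ways, 3 of 6 up beside 36.5% of all tested genes and 2 of 6 down beside 32%. With an absolute log2FC of at least 1 required as well, VWF was the gene called higher (16.7% of all tested genes) and GP1BA and THBS1 those called lower (8.5%). For 5 of the 6 the lines did not overlap, beside 70.1% of all tested genes. The median log2 fold change of the 6 tested genes was 0.36 against 0.03 over all tested genes. Setting VWF at its lower bound, at log2 of 2.24, cannot move this median, as VWF stays the highest of the 6. The measurements are from bulk RNA, in which fewer cells with a transcript and less of it per cell cannot be told apart.

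**Figure D1:**
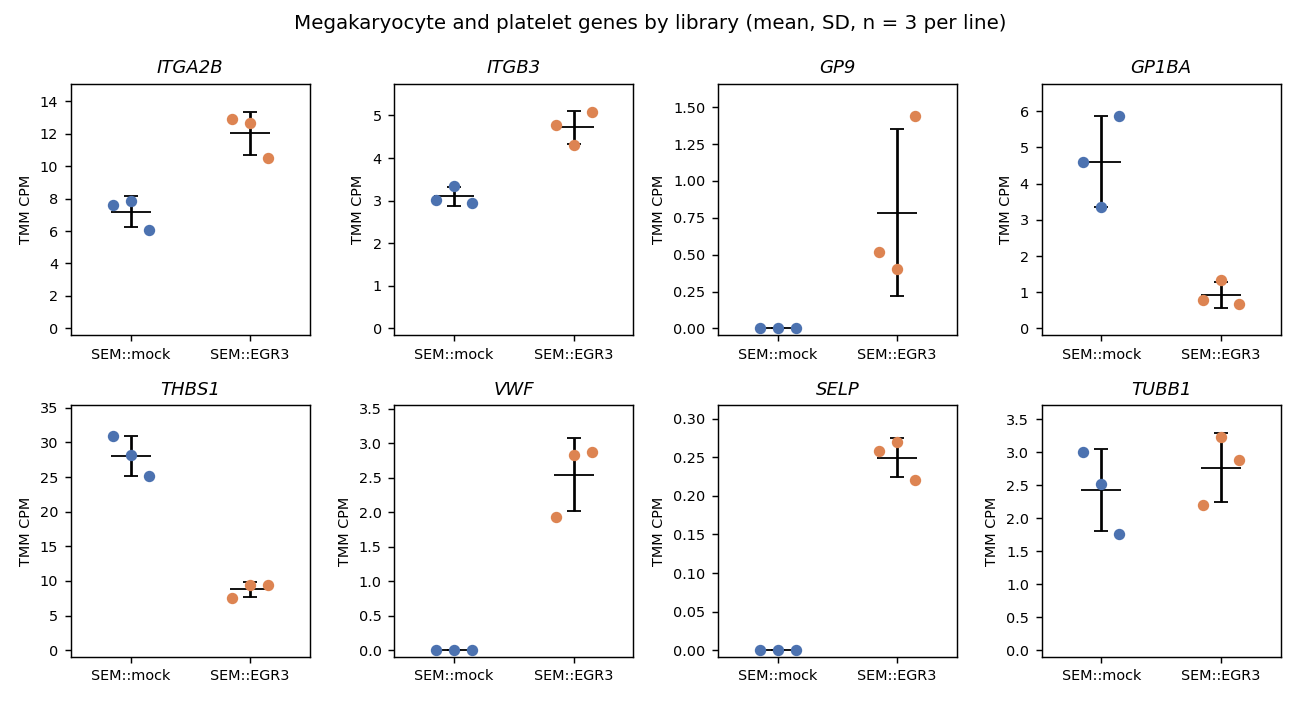
TMM-normalized CPM (y axes, each starting at 0 and scaled by gene) of the 8 measured genes in the 3 SEM::mock and 3 SEM::EGR3 libraries. Points are libraries and black bars the mean and SD: THBS1 and GP1BA lie lower in SEM::EGR3, ITGA2B and ITGB3 higher, TUBB1 overlaps, and GP9, VWF and SELP are at 0 in SEM::mock.

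ITGA2B (ENSG00000005961, chromosome 17, 44372180 to 44389505, minus strand, GRCh38) encodes the αIIb chain of the platelet integrin and is an early marker of the megakaryocyte lineage. Counts of 43, 47 and 31 were found in SEM::mock replicates 1 to 3 and 200, 94 and 95 counts in SEM::EGR3 replicates 1 to 3. These counts equal 7.60, 7.87 and 6.08 CPM in SEM::mock and 12.9, 12.7 and 10.5 CPM in SEM::EGR3. All 3 SEM::EGR3 libraries lay above all 3 SEM::mock libraries, as was the case, upward, for 37.5% of the tested genes. The mean rose from 7.18 ± 0.966 to 12.02 ± 1.32 CPM (n = 3 per line) at a log2FC of 0.74 ± 0.16 (edgeR, adjusted p = 0.000186). ITGA2B was the most abundant of the 8 genes in SEM::EGR3.

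ITGB3 (ENSG00000259207, chromosome 17, 47253846 to 47311816, plus strand) encodes the β3 chain that pairs with αIIb in platelets and with the αv chain in other cells. Its counts were 17, 20 and 15 in SEM::mock and 74, 32 and 46 in SEM::EGR3, or 3.00, 3.35 and 2.94 CPM against 4.77, 4.31 and 5.08 CPM. The lines did not overlap, and the log2FC was 0.61 ± 0.22 (edgeR, adjusted p = 0.0175). This call was lost without SEM::mock replicate 1 (adjusted p = 0.0615), without SEM::mock replicate 3 (adjusted p = 0.0619) and with DESeq2 in place of edgeR (adjusted p = 0.0909). ITGB3 is overlapped on the same strand by AC068234.1, which was not analysed here, and reads shared with it cannot be told apart. ITGAV, the gene of the αv chain, fell from 18.8 ± 1.08 to 13.5 ± 0.944 CPM (n = 3 per line) at a log2FC of -0.46 ± 0.12 (edgeR, adjusted p = 0.00101). Within a library, ITGA2B had 2.07 to 2.53 times the counts of ITGB3 in SEM::mock and 2.07 to 2.94 times in SEM::EGR3, so this ratio overlapped between the lines.

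VWF (ENSG00000110799, chromosome 12, 5948874 to 6124770, minus strand) encodes von Willebrand factor, the plasma and alpha granule protein that tethers platelets to collagen and is made by megakaryocytes and endothelial cells. It had 0 counts in all 3 SEM::mock libraries and 30, 21 and 26 counts in SEM::EGR3, equal to 1.94, 2.83 and 2.87 CPM. At the level of SEM::EGR3, 42.6 counts would have been expected over the 3 SEM::mock libraries. With 3 counts per library assumed for SEM::mock, the mean VWF level of the SEM::EGR3 line exceeded the assumed one by a factor of 4.71 or more. This bound covers counting error only. The difference between the 2 lines was called (edgeR, adjusted p = 2.42e-07). VWF remained a rare transcript, since its level in SEM::EGR3 exceeded that of 10.1% of the tested genes. CD9, which encodes a platelet tetraspanin and is the nearest tested gene to the right of VWF at 74.9 kb, had 26.7 ± 0.792 CPM in SEM::mock and 30.6 ± 2.65 CPM in SEM::EGR3 (n = 3 per line) and missed the threshold (log2FC 0.20 ± 0.09, edgeR, adjusted p = 0.0539).

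GP9 (ENSG00000169704, chromosome 3, 129060767 to 129062406, plus strand) encodes glycoprotein IX, a small subunit of the von Willebrand factor receptor. No SEM::mock library held a count of it, and the SEM::EGR3 libraries held 8, 3 and 13. Relative to the mean, the 3 SEM::EGR3 libraries differed more among themselves for this gene than for the others, at 0.516, 0.404 and 1.44 CPM. Against 3 counts per SEM::mock library, its mean level of 0.786 ± 0.567 CPM (n = 3 libraries) was at least 1.45-fold above. This bound rests on SEM::EGR3 replicate 3, without which the mean was 0.46 CPM, or 0.851 times the level of 3 counts in SEM::mock, so that no bound above 1 was left (a check added after seeing the data). In a fit without the filter, over 34056 genes, GP9 passed the threshold (adjusted p = 0.00017, edgeR).

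GP1BA (ENSG00000185245, chromosome 17, 4932297 to 4935030, plus strand) encodes glycoprotein Ibα, the subunit of the same receptor that contacts von Willebrand factor. Its counts were 26, 20 and 30 in SEM::mock and 12, 10 and 6 in SEM::EGR3, although the SEM::EGR3 libraries were deeper. In CPM, these are 4.59, 3.35 and 5.88 against 0.774, 1.35 and 0.663. The lines did not overlap, as for 32.6% of the tested genes in this direction, and the level fell from 4.61 ± 1.27 to 0.928 ± 0.367 CPM (n = 3 per line). The log2FC was -2.35 ± 0.31 (edgeR, adjusted p = 3.77e-07) and stayed within -2.61 and -2.17 with any library omitted. CHRNE overlaps GP1BA on the opposite strand and had 1 to 4 counts in SEM::mock and 5 to 16 in SEM::EGR3. Of the remaining subunits of the complex, GP5 was counted 0, 2 and 0 times in SEM::mock and 1, 0 and 1 times in SEM::EGR3, and GP1BB was not analysed here. The receptor genes thus did not share a direction, with GP1BA lower, GP9 counted in SEM::EGR3 alone and GP5 at the detection limit in both lines.

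THBS1 (ENSG00000137801, chromosome 15, 39581079 to 39599466, plus strand) encodes thrombospondin 1, an adhesive protein of alpha granules and extracellular matrix that is also secreted by fibroblasts and endothelial cells. It was the most abundant of the 8 genes in SEM::mock, with 175, 168 and 128 counts there and 116, 70 and 85 counts in SEM::EGR3. These counts correspond to 30.9, 28.1 and 25.1 CPM in SEM::mock and 7.48, 9.43 and 9.39 CPM in SEM::EGR3. All SEM::EGR3 libraries were below all SEM::mock libraries, and the log2FC was -1.72 ± 0.12 (edgeR, adjusted p = 7.52e-12). Omitting any library gave a log2FC within -1.80 and -1.57. THBS1 stood above 59.0% of the tested genes by level in SEM::mock and above 31.7% in SEM::EGR3.

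The promoters of the most abundant gene that fell and of the most abundant gene that rose are shown to compare their composition and the motifs they hold. They are the 250 bases before the RefSeq start on the transcribed strand (GRCh38.p14), THBS1 at chr15:39580829-39581078 (plus strand) and ITGA2B at chr17:44389650-44389899 (minus strand). Capitals mark a match to one of the motifs searched on both strands, GCGTGGGCG and GCGGGGGCG of the EGR family, AGATAA and TGATAA of the GATA family and CCGGAAG of the ETS family, none of which overlap here.
THBS1: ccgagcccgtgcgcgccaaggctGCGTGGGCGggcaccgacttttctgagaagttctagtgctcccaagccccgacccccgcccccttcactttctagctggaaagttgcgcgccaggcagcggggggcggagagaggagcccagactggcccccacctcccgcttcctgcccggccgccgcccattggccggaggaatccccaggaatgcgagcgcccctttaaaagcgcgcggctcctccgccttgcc
ITGA2B: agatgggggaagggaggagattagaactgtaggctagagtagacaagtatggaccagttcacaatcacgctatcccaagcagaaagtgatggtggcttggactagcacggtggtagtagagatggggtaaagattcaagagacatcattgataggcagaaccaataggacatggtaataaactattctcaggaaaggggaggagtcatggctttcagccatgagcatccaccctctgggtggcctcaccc
THBS1 holds GCGTGGGCG once, from 227 to 219 bases before the start, a sequence found in 0.72% of the 35116 promoter windows of this length. As both EGR motifs were searched, the share to set beside this match is that of windows with any EGR motif, 5.37%. ITGA2B holds none of the motifs, which says only that these letters are absent from this window. On the minus strand, the GENCODE position of ITGA2B starts at 44389505 and the window at 44389650. The bases between them were not searched. Promoter sequences were matched for 5 of the 9 genes. Of the others, SELP holds TGATAA on the minus strand from 108 to 103 bases before the start, and GP9 and TUBB1 hold none. TGATAA was found in 6.66% of all windows and any GATA motif in 14.6%. The windows of SELP, GP9 and TUBB1 reach past the GENCODE starts of these genes. The THBS1 window had 69.6% G and C bases and that of ITGA2B 48.8%, against a median of 58.0% over all windows. A match is a description of the sequence, and binding was not measured in these libraries.

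SELP (ENSG00000174175, chromosome 1, 169588849 to 169630193, minus strand) encodes P-selectin, which moves from alpha granules to the platelet surface upon activation and is also stored in endothelial cells. Its count was 0 in the SEM::mock libraries and 4, 2 and 2 in SEM::EGR3, or 0.258, 0.269 and 0.221 CPM. At that level only 4.17 counts would have been expected over the 3 SEM::mock libraries, so a difference was not detectable at this depth. The fit without the filter gave an adjusted p = 0.0824 (edgeR). SELPLG, which encodes the P-selectin ligand of leukocytes, fell from 8.89 ± 1.23 to 1.38 ± 0.239 CPM (n = 3 per line) at a log2FC of -2.65 ± 0.23 (edgeR, adjusted p = 1.84e-10).

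TUBB1 (ENSG00000101162, chromosome 20, 59019254 to 59026654, plus strand) encodes the β1 tubulin of the platelet microtubule ring. Its counts were 17, 15 and 9 in SEM::mock and 34, 24 and 26 in SEM::EGR3, equal to 3.00, 2.51 and 1.76 CPM against 2.19, 3.23 and 2.87 CPM. The lines overlapped, and the log2FC of 0.11 ± 0.28 (edgeR, adjusted p = 0.739) did not pass the threshold. TUBB1 overlaps ATP5F1E, a gene of the mitochondrial ATP synthase on the opposite strand with 2210 to 2532 counts in SEM::mock and 2938 to 5593 in SEM::EGR3. As the strand setting of the counting was not given, reads of this pair cannot be told apart if strand was not used. Of 6 further β tubulin genes that were tested, TUBB2A, TUBB4A and TUBB4B were higher and TUBB, TUBB2B and TUBB6 lower in SEM::EGR3, with log2 fold changes from -2.50 (TUBB2B) to 2.15 (TUBB4A).

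In order of level, THBS1 led in SEM::mock at 28.1 CPM, followed by ITGA2B at 7.18, GP1BA at 4.61, ITGB3 at 3.10 and TUBB1 at 2.43 CPM. The ranges of GP1BA and ITGB3 and those of ITGB3 and TUBB1 overlapped between libraries, so their order is not fixed by these data. In SEM::EGR3 the order was ITGA2B at 12.02, THBS1 at 8.77, ITGB3 at 4.72, TUBB1 at 2.77, VWF at 2.55, GP1BA at 0.928, GP9 at 0.786 and SELP at 0.249 CPM, with overlap between TUBB1 and VWF and between GP1BA and GP9. MACE-Seq reads the ends of transcripts, so that these levels were compared without division by length. The summed level of the 8 genes was 45.4 ± 3.68 CPM in SEM::mock and 32.8 ± 1.84 CPM in SEM::EGR3 (n = 3 per line). Without THBS1 the order of the lines was the opposite, with 17.3 ± 0.792 CPM in SEM::mock and 24 ± 0.91 CPM in SEM::EGR3. THBS1 made up 60.1% to 62.9% of the sum in SEM::mock libraries and 24.3% to 28.4% in SEM::EGR3 libraries, whereas ITGA2B made up 14.6% to 17.4% and 31.8% to 41.8%.

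**Figure D2:**
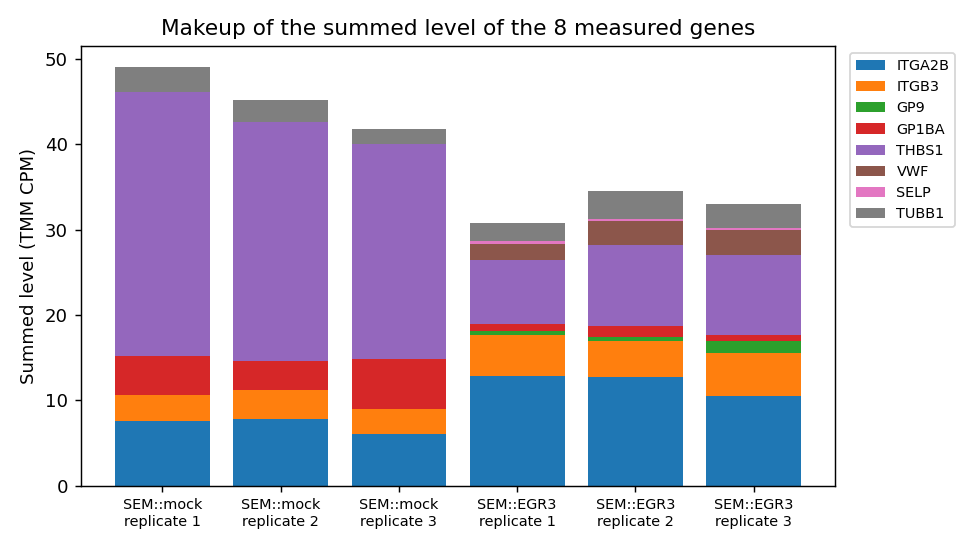
Summed TMM-normalized CPM of the 8 measured genes (y axis) in each of the 6 libraries, stacked by gene. THBS1 takes 60.1% to 62.9% of each SEM::mock bar and ITGA2B is the widest band in each SEM::EGR3 bar.

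VWF, SELP and THBS1 are also made outside the megakaryocyte lineage. Of the 8 endothelial markers, CLDN5 and EMCN were at 0 counts in all 6 libraries, CDH5 and ROBO4 had 1 count each in SEM::EGR3 replicate 1 and 0 elsewhere, TEK and PLVAP had 5 counts or fewer in each library, and KDR and ERG were called higher in SEM::EGR3. The summed level of the list was 2.12 to 4.35 CPM in SEM::mock and 27.9 to 33.0 CPM in SEM::EGR3, most of it KDR with 18.1 ± 2.05 CPM and ERG with 11.7 ± 0.612 CPM (n = 3 per line). Of the 6 fibroblast markers, COL3A1 was at 0 in all libraries, COL1A1 and COL1A2 were higher and PDGFRA lower in SEM::EGR3. DCN and LUM, too rare to be tested, had means of 0.813 and 0.878 CPM in SEM::mock and 0.265 and 0.0798 CPM in SEM::EGR3. The summed level moved from between 13.7 and 18.1 CPM to between 68.7 and 69.6 CPM. In SEM::EGR3 most of it was COL1A1 with 43.2 ± 0.894 CPM and COL1A2 with 22.7 ± 1.355 CPM (n = 3 per line). The part of other cell types in the levels of VWF and THBS1 was not tested.

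A wider list of 82 megakaryocyte and platelet genes, grouped by role, was set beside the group. Of these, 66 were tested, 11 were filtered out for low counts and 5 were not analysed here. The edgeR test called 27 of the 66 (40.9%) higher and 29 (43.9%) lower in SEM::EGR3, beside 36.5% and 32% of all tested genes. The median log2 fold change was 0.09 against 0.03 over all tested genes. Setting the 5 genes with 3 counts or fewer in every SEM::mock library at their lower bounds cannot move it. Those bounds, at log2 of 3.5 to 5.37, lie above the median as the fitted values do.

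**Figure D3:**
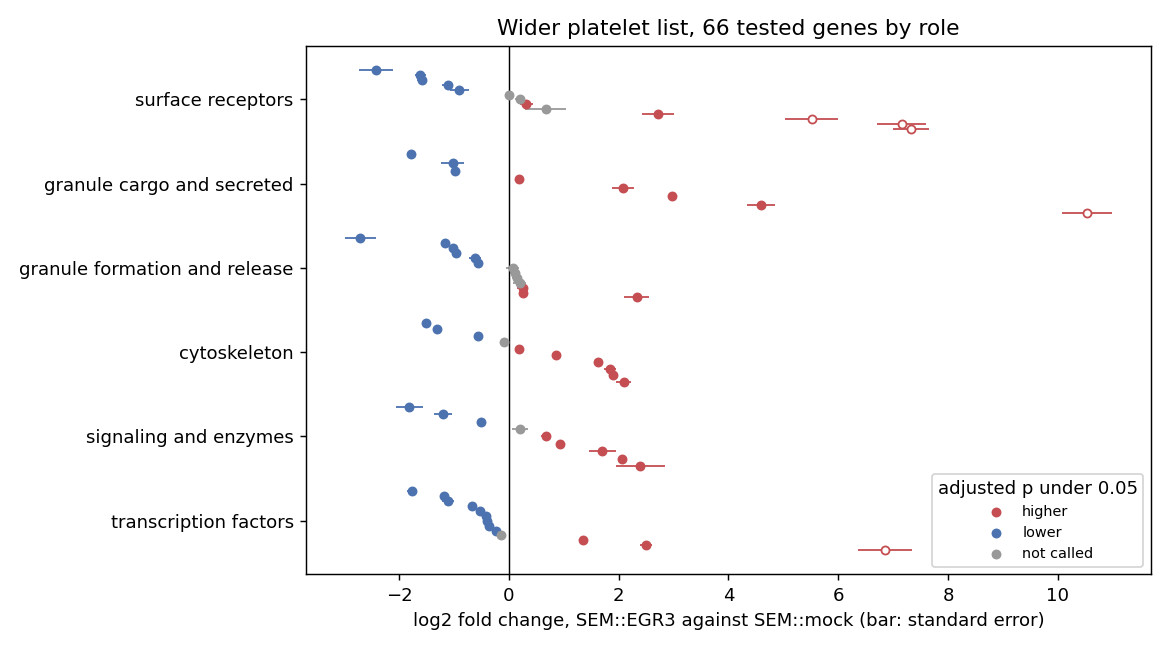
Fitted log2 fold changes of the 66 tested genes of the wider platelet list (x axis, bars are standard errors) by role, colored by call. Open circles are genes with 3 counts or fewer in each SEM::mock library, whose position depends on how the fit treats such counts. Higher and lower genes occur in each role, and the transcription factors have 9 lower against 3 higher. Of all tested genes, 32% were lower and 36.5% higher.

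Among surface receptors, 5 were higher, 5 lower and 3 did not pass the threshold, beside 36.5% higher and 32% lower of all tested genes. ITGA6, a laminin-binding integrin chain, moved from 1, 0 and 1 counts in SEM::mock to 323, 148 and 217 in SEM::EGR3, a rise of at least 39.9-fold. P2RX1, an ATP-gated channel, had 0, 0 and 1 counts against 163, 80 and 98, at least 19.8-fold higher. Both stood at the detection limit in SEM::mock. GP6, the collagen receptor of platelets, fell from 5.35 ± 1.12 to 0.858 ± 0.542 CPM (n = 3 per line), with 37, 31 and 22 counts in SEM::mock and 23, 4 and 5 in SEM::EGR3. Its log2FC was -2.42 ± 0.31, and -3.25 without SEM::EGR3 replicate 1, the library with the most counts of it in that line. F2R, the thrombin receptor gene, fell from 40.1 ± 2.83 to 13.1 ± 1.54 CPM (n = 3 per line) at a log2FC of -1.62 ± 0.10.

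Of the granule cargo genes, 5 were higher and 3 lower, beside 36.5% and 32% of all tested genes. SRGN, the core protein of the granule proteoglycan serglycin, had 0 counts in SEM::mock and 382, 154 and 197 in SEM::EGR3, a rise of at least 41.4-fold. PDGFB, a chain of platelet-derived growth factor, rose from 0.720 ± 0.0584 to 17.4 ± 2.12 CPM (n = 3 per line) at a log2FC of 4.60 ± 0.25. SPARC, a matrix protein, fell like THBS1, from 254.8 ± 10.9 to 74.6 ± 5.72 CPM (n = 3 per line) with a log2FC of -1.77 ± 0.06. PPBP and PF4V1, the chemokine genes next to PF4, were not analysed here. MMRN1, a carrier of factor V, had 0 counts in SEM::mock and 4 in each SEM::EGR3 library.

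In granule formation and release, 3 genes were higher, 6 lower and 4 not called. Beside this role and those that follow, 36.5% of all tested genes were higher and 32% lower. RAB27B, a GTPase of granule secretion, fell from 5.16 ± 0.782 to 0.824 ± 0.158 CPM, and its relative RAB27A fell from 133.5 ± 4.66 to 59.5 ± 2.18 CPM (n = 3 per line). LYST, which controls the size of lysosome-related granules, rose from 2.04 ± 0.109 to 10.2 ± 1.91 CPM (n = 3 per line). STXBP2, a regulator of granule fusion, was called with overlapping libraries (log2FC 0.26 ± 0.08), and the call was lost without SEM::mock replicate 2 (adjusted p = 0.0745, edgeR). Cytoskeletal genes split into 6 higher, 3 lower and 1 not called. WAS (log2 fold change 2.09) and MYL9 (1.89), which act on actin and myosin, were higher, whereas the adhesion genes PARVB (-1.50) and VCL (-1.31) were lower. Of the signaling genes and enzymes, 5 were higher, 3 lower and 1 not called, led by the G protein subunit genes GNAZ (2.39) and GNAQ (2.07) upward and by the adaptor FYB1 (-1.81) and the kinase PRKCQ (-1.20) downward.

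All 13 transcription factors of the list passed the filter, and 3 were higher (23.1%), 9 lower (69.2%) and 1 not called in SEM::EGR3. Over all tested genes the shares were 36.5% higher and 32% lower. With an absolute log2FC of at least 1 required as well, FLI1, RUNX1 and MEIS1 were called higher and ETV6, LYL1 and LMO2 lower. The shares over all tested genes were then 16.7% and 8.5%. FLI1, an ETS factor required for late megakaryocyte genes such as GP9, moved from 1, 0 and 0 counts in SEM::mock to 142, 71 and 65 in SEM::EGR3, a rise of at least 16.0-fold (edgeR, adjusted p = 6.11e-12). RUNX1 rose from 61.1 ± 1.48 to 156 ± 5.81 CPM and MEIS1 from 8.29 ± 0.980 to 47.2 ± 2.91 CPM (n = 3 per line), with log2 fold changes of 1.35 and 2.50. GATA1 stood above 97.2% of the tested genes in SEM::mock and above 96.8% in SEM::EGR3, and fell from 336 ± 9.68 to 286 ± 8.71 CPM (n = 3 per line) at a log2FC of -0.23 ± 0.05 (edgeR, adjusted p = 0.000342). Small decreases were also measured for TAL1 (-0.37), GATA2 (-0.40), MAFG (-0.42), GFI1B (-0.52) and NFE2 (-0.68). Larger ones were those of ETV6 (-1.10), LYL1 (-1.18) and LMO2 (-1.77), while ZFPM1, the GATA1 cofactor gene, changed by -0.14 (adjusted p = 0.0869, edgeR) without passing the threshold. LYL1 and GATA1 led the factors in SEM::mock by level.

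**Figure D4:**
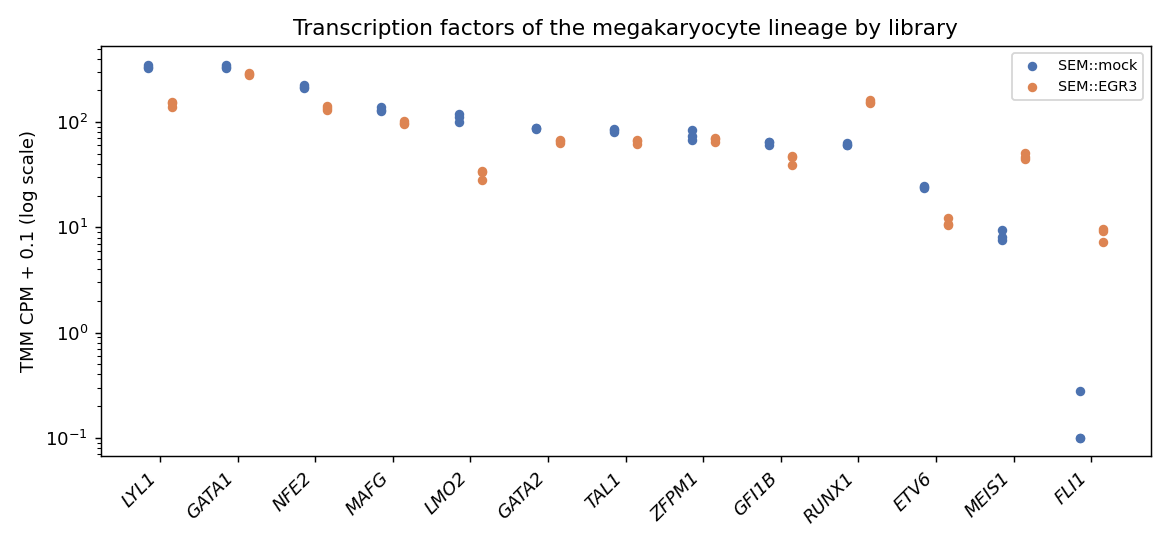
TMM-normalized CPM with 0.1 added (y axis, log scale) of the 13 transcription factors in the 3 SEM::mock and 3 SEM::EGR3 libraries, ordered by level in SEM::mock. FLI1, MEIS1 and RUNX1 lie higher in SEM::EGR3, 9 factors lie lower, and the libraries of ZFPM1 overlap.

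Compared with its family, THBS1 was the gene with the most counts in SEM::mock, and the 2 relatives that were tested rose. THBS3 rose from 1.74 ± 0.595 to 6.77 ± 1.60 CPM (n = 3 per line) at a log2FC of 2.00 ± 0.28. COMP had 0 counts in SEM::mock and 81, 60 and 57 in SEM::EGR3, a rise of at least 12.1-fold, whereas THBS2 and THBS4 had 5 counts or fewer in each library. CD47, a thrombospondin receptor gene, fell from 169 ± 7.996 to 109.9 ± 1.35 CPM (n = 3 per line). The receptor gene CD36 had 2 counts or fewer in each library.

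By pattern over the 6 libraries (Euclidean distance of log2 CPM after centring each gene), the nearest tested genes to ITGA2B were RIC8B (0.12) and ZNF667-AS1 (0.157), and to ITGB3 they were USP16 (0.0681) and PARP2 (0.0699). The nearest to THBS1 were PROCR (0.0827) and ETV4 (0.177), and to GP1BA AL031429.2 (0.513) and SH3GL3 (0.52). OCSTAMP (0.199) and AC010619.2 (0.208) were nearest to VWF, and AC093227.1 (0.217) and C4B (0.234) to TUBB1. With 2 lines, such distances mainly order genes by the difference between the lines, and the neighbors of GP1BA lie farther away than those of the others.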

How the data were processed

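MACE-Seq libraries of SEM::mock and SEM::EGR3 (3 each) were grouped by their titles, and the column headings, which spell ERG3, were read as the EGR3 line. The authors deposited whole counts per gene and library. They also deposited CPM values, named TPM in the table, and size-factor normalized signal values, each a constant multiple of the counts within a library, and fold changes and p-values of their own comparison, which were not used. The submitters' processing notes name bcl2fastq, Bowtie2, HTSeq and GRCh38. Versions, annotation and strand setting are not given in the sources used here. The listed genes held 73.6% to 75.8% of the library totals implied by the deposited CPM.

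The counts were fitted with edgeR 4.0.16 under R 4.3.3 (filterByExpr, TMM, glmQLFit, glmQLFTest, Benjamini-Hochberg over 15465 genes), after a test on simulated data. Standard errors are the log2 fold change divided by the square root of F. Folds against 3 counts or fewer per library are lower bounds set at 3 counts per library, and cover counting error only, as reads are not independent molecules. Positions are from GENCODE release 29, which holds 97.0% of the gene identifiers, and promoters from RefSeq. All 9 genes were named. Of the wider list, the text names per role up to 2 called genes each way by fitted log2 fold change averaging 20 counts or more where higher, all transcription factors, and the partners GP1BB, GP5, PPBP and PF4V1. Some genes that this rule names are not reported here. CD9, CD36, ITGAV and MMRN1 were named after their values were seen, and overlapping genes were found by position. For each of the 9 genes that was tested and averaged 10 counts or more where higher, the 2 nearest tested genes by centred log2 CPM (prior count 2) were named. Marker and gene lists and the 9 genes were chosen with earlier results of these data known. Alternatives were DESeq2 1.42.0, other normalizations and filters, a replicate block, a minimum log2 fold change and leaving out each library.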

Additional observations from a re-analysis of the deposited data

How the results depend on the processing

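Calls for the group kept their direction and changed little in number: 2 to 4 of the 8 measured genes were called higher over all alternatives except that requiring an absolute log2FC of 1 or more, under which 1 was called, as ITGA2B and ITGB3 lie below it. The number called lower was 2 except with at least 10 counts in every library, which left 1, because this filter removes GP1BA. Requiring an absolute log2FC of 1 or more left 19 of the 66 tested genes of the wider list higher and 16 lower. Over all tested genes the shares were then 16.7% and 8.5%. With at least 10 counts in every library, 19 genes of the wider list were higher and 27 lower. Of all 12801 genes tested under that filter, 8481 were called in either direction. The log2 fold change of TUBB1, which passed no threshold, ranged from -0.0706 (without SEM::mock replicate 3) to 0.312 (without SEM::EGR3 replicate 1). With each library left out in turn, 24 to 27 genes of the wider list were higher and 29 to 30 lower. With the replicate number as a block, 3 and 2 of the group and 26 and 29 of the wider list were called, and no call of the group changed. The numbers did not pair the samples, since same-numbered libraries had correlations of deviations of -0.138, -0.0934 and -0.0431. Counts under about 10 per SEM::mock library limit what can be said of GP9, SELP and VWF beyond the values given. Omitting each library, as an alternative added after seeing the data, moved the lower bound by over 1.5 times for GP9 without SEM::EGR3 replicate 3 (0.851) and for no other gene with such a bound.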
